A study of Mus musculus with 5 samples.

Results

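The 10 genes described here encode secreted metalloproteases of the ADAMTS family: *Adamts1*, *Adamts2*, *Adamts4*, *Adamts5*, *Adamts7*, *Adamts9*, *Adamts10*, *Adamts12*, *Adamts19* and *Adamts20*. They were chosen by name, and each had at least 1 tag of its own among the 13486 genes with a listed tag in the whole series. Tag-seq, which counts a short tag next to an NlaIII site of each polyadenylated transcript, was applied to 5 libraries of mouse heart tissue dissected at embryonic day 10.5 (Theiler stage 17). The 4 wild-type libraries, from C57BL/6 embryos, were the atrio-ventricular canal (AVC), the outflow tract (OFT), the atria and the ventricles. The fifth library was the AVC of Twist1 Knockout embryos of the ICR strain, called the *Twist1* null AVC here, a null allele that is not limited to the heart. Each library was a pool of at least 3 litters, and no group had a second library. All tests therefore compare libraries, and genotype, strain and library preparation cannot be told apart in the null comparison.

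ADAMTS proteases are secreted as inactive precursors, are trimmed by proprotein convertases such as furin, and act on proteins of the extracellular matrix to which their thrombospondin repeats bind. In the heart at this stage the AVC and OFT hold endocardial cushions, the precursors of the valves, which are rich in hyaluronan and in versican, a large proteoglycan that several ADAMTS proteases cleave. Mice that lack or have less of some of these proteases, *Adamts5* and *Adamts9* among them, are known for excess versican and misshapen valves. *Twist1* encodes a transcription factor of the cushion mesenchyme, and the study set out to find its targets in the AVC.

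The libraries held between 4223810 tags (ventricles) and 12977237 tags (*Twist1* null AVC), of which 70.7% to 74.5% belonged to 1 gene. A tag type was listed only from 6 tags upwards, which corresponds to 0.462 tags per 1000000 tags (TPM) in the deepest library and 1.42 TPM in the shallowest. A gene with no listed tag was thus below this limit for each of its tags, and was not shown to be absent. The AVC held 918 TPM of *Twist1*, the OFT 299, the atria 63.4, the ventricles 55.9 and the null AVC 4.55. In TPM, the *Twist1* level of the library labelled Twist1 Knockout was thus 202-fold below that of the wild-type AVC (edgeR exact test p = 2.61e-15). All 8 cushion mesenchyme markers were higher in the AVC and in the OFT than in the chambers, and their summed level was 3061 TPM in the OFT, 2386 in the AVC, 498 in the null AVC and 178 to 179 in the chambers. Without *Col3a1*, which made up most of these sums in both cushion regions, the other 7 markers summed to 69.6 TPM (ventricles), 83.6 TPM (atria), 291 TPM (null AVC), 725 TPM (OFT) and 947 TPM (AVC). *Prrx1* was unlisted in both chambers, which with 5 tags for each of its 11 tag types allows up to 11.8 TPM in the atria. Against the chambers, 43.4% (AVC) and 40.6% (OFT) of all genes were called higher by the edgeR exact test at p under 0.05. The other marker lists were mixed. Of 8 cardiomyocyte markers, 5 were called higher and 1 lower for the AVC, and 4 higher and 0 lower for the OFT. Of the smooth muscle markers tested, 4 of 6 (AVC, 1 of them from 6 tags) and 4 of 5 (OFT) were called higher. Of 8 endothelial and endocardial markers, 3 were called higher and 1 lower for the AVC, and 3 higher and 0 lower for the OFT. Of 5 epicardial markers, 1 was called higher and 0 lower for the AVC, and 1 higher and 3 lower for the OFT. Of 8 erythroid markers none was called higher, while 7 (AVC) and 8 (OFT) were called lower. Calls higher were therefore not limited to cushion markers, as the shares over all genes also show. In such pooled tissue, fewer cells of a type and less RNA per cell cannot be told apart. Haemoglobin tags made up 0.242% of the AVC, 0.307% of the OFT, 2.73% of the null AVC, 4.67% of the ventricles and 21.5% of the atria. A T was the first base after the site in 13.6% of AVC tags, 15.0% of OFT tags, 22.2% of ventricle tags, 32.1% of atria tags and 32.4% of null AVC tags. Within genes that had tags of both kinds, T tags stood 1.42 log2 units higher than other tags in the null AVC against the AVC (median of 1708 genes), and 0.92 log2 units lower in the AVC against the chambers (median of -0.92 over 739 genes). The share of T tags is therefore given for the named genes measured mainly by them, and, other than through the alternatives that offset or leave out these tags, its part in the results was not tested.

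The tags themselves define what was measured. The 10 genes had 25 listed tag types, each found in 1 gene only, and 23 of them lay in a 3′ UTR. Below are the most counted tags of the genes other than *Adamts19*, 5′ to 3′ in the sense of the transcript, with the NlaIII site in capitals and positions on GRCm38 (GENCODE M21). The number of the site is counted from the 3′ end of the transcript.
Adamts1, site 1: CATGtaaatgataaactgtgg
Adamts1, site 3: CATGtactttataagtattgg
Adamts4, site 3: CATGtgccaataataatccct
Adamts5, site 14: CATGtgaatttctgtgatgaa
Adamts5, site 16: CATGtgtaaatacaatatata
Adamts7, site 1: CATGtcccccactcagtcgtg
Adamts9, site 1: CATGtgaaacatattataaat
Adamts10, site 1: CATGgtgctacaagccctgcc
Adamts12, site 1: CATGtttctgcactgctgctt
Adamts20, site 1: CATGcttgttaattgaataac
Adamts2, site 19: CATGgtgtggatgaagaggtc
The *Adamts1* tags lay in exon 9 of 9, on the minus strand at chr16:85793862-85793882 and chr16:85794363-85794383. The *Adamts10* tag lay on the plus strand at chr17:33553689-33553709, in exon 25 of 25, and the *Adamts9* tag on the minus strand at chr6:92772726-92772746, in exon 30 of 30. The *Adamts20* tag, at chr15:94320577-94320597 in exon 28 of 28 (minus strand), belonged to a transcript that ends 264 bases on, well before the annotated end of the gene. The *Adamts7* tag at chr9:90199810-90199830 (plus strand, exon 24 of 24) and the *Adamts2* tag at chr11:50803895-50803915 (plus strand, exon 22 of 22) were in coding sequence, and the *Adamts2* tag was 3679 bases from the annotated end. The *Adamts12* tag was at chr15:11349103-11349123 (plus strand), the *Adamts4* tag at chr1:171259845-171259865 (plus strand) and the *Adamts5* tags at chr16:85859733-85859753 and chr16:85862153-85862173 (minus strand). *Adamts1* and *Adamts5* are neighbours, 53059 bases apart. Of the 25 tag types, 14 begin with T, as the sequences show: all tags of *Adamts7* and *Adamts12*, 99.4% of those of *Adamts1*, 96.8% of *Adamts5* and 93.5% of *Adamts9* did so, against 1.37% of *Adamts19* and none of *Adamts2*, *Adamts10* and *Adamts20*.

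Of the 10 genes, 9 were listed in the AVC, 8 in the null AVC, 7 in the OFT, and 5 each in the atria and the ventricles. *Adamts1*, *Adamts5*, *Adamts9* and *Adamts10* were listed in every library. *Adamts7* and *Adamts19* were listed in the AVC, the OFT and the null AVC, and in neither chamber. *Adamts12* had tags in the AVC and the null AVC, *Adamts4* in the OFT and the null AVC, *Adamts20* in the AVC and the ventricles, and *Adamts2* in the AVC and the atria.

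**Figure D1:**
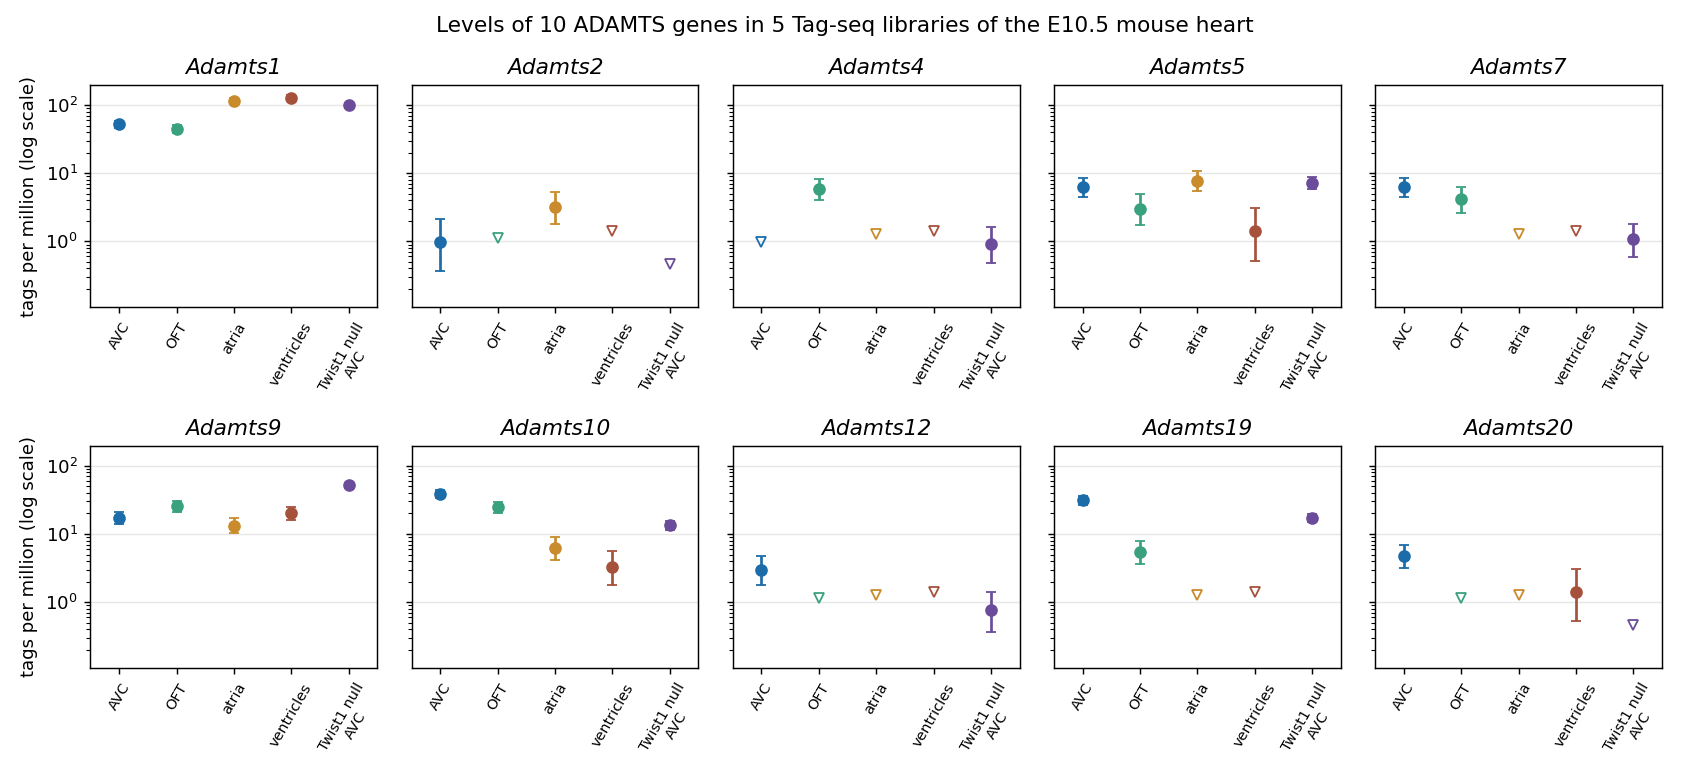
Level of each of the 10 ADAMTS genes (vertical axis, TPM, log scale) in the 5 libraries, with exact Poisson 95% intervals that cover counting error only; open triangles mark the limit of 6 tags in libraries where the gene had no listed tag. *Adamts7*, *Adamts10*, *Adamts12*, *Adamts19* and *Adamts20* are highest in the AVC, while *Adamts1* is lower in the AVC and the OFT than in the other 3 libraries.

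The first comparison asked which proteases were higher in the valve-forming AVC than in the summed atria and ventricles. *Adamts7*, *Adamts10*, *Adamts12*, *Adamts19* and *Adamts20* were higher in the AVC and none was lower, of the 9 genes with a tag in these libraries (edgeR exact test, dispersion 0.12 after the methods of the study, unadjusted p under 0.05). Over all genes tested, 43.4% were called higher and 8.12% lower, so that calls in this direction were common, and the median of all genes was 1.23 on the log2 scale. With TMM normalization, 60.8% of the calls over all genes were higher, against 84.2% without it (56.2% with DESeq2 size factors). Of the 5 calls, those of *Adamts7*, *Adamts10* and *Adamts19* were made in every alternative that gave a value. That of *Adamts12* was lost when each unlisted tag type was given 5 tags, and that of *Adamts20* with TMM, with DESeq2 size factors, at a dispersion of 0.4 and against the ventricles alone.

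The same chambers served as reference for the OFT, so the 2 comparisons share their controls. *Adamts4*, *Adamts7*, *Adamts10* and *Adamts19* were higher in the OFT and *Adamts2* was lower, of 9 genes tested. Over all genes, 40.6% were called higher and 8.88% lower, with a median of 1.07 on the log2 scale, and 61.0% of calls were higher with TMM against 82.1% without it (57.6% with DESeq2 size factors). The call of *Adamts7* was made in every alternative that gave a value. Those of *Adamts2*, *Adamts4* and *Adamts19* were lost with 5 tags for each unlisted tag type, and that of *Adamts10* with TMM, with DESeq2 size factors and at a dispersion of 0.4.

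Between the 2 cushion regions, *Adamts12*, *Adamts19* and *Adamts20* were higher in the AVC and *Adamts4* was higher in the OFT. Such calls made up 7.35% (higher in the AVC) and 5.22% (lower in the AVC) of all genes tested. The other 6 genes were not called.

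In the *Twist1* null AVC, *Adamts4* and *Adamts9* were called higher than in the wild-type AVC, and *Adamts2*, *Adamts7*, *Adamts10*, *Adamts12* and *Adamts20* lower. Over all genes, 11.9% were called higher and 12.7% lower; 48.3% of calls were higher, against 61.4% with TMM and 57.6% with DESeq2 size factors. After Benjamini-Hochberg adjustment over 12963 genes, *Adamts20* remained (adjusted p = 0.00111, edgeR exact test), with *Adamts7* at an adjusted p of 0.0524 and the other 5 between 0.105 and 0.188. *Adamts20* was also the one call of the 7 made in every alternative that gave a value. Between the chambers, *Adamts2* and *Adamts5* were lower in the ventricles than in the atria, where 9.03% of all genes were called lower and 11.1% higher.

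**Figure D2:**
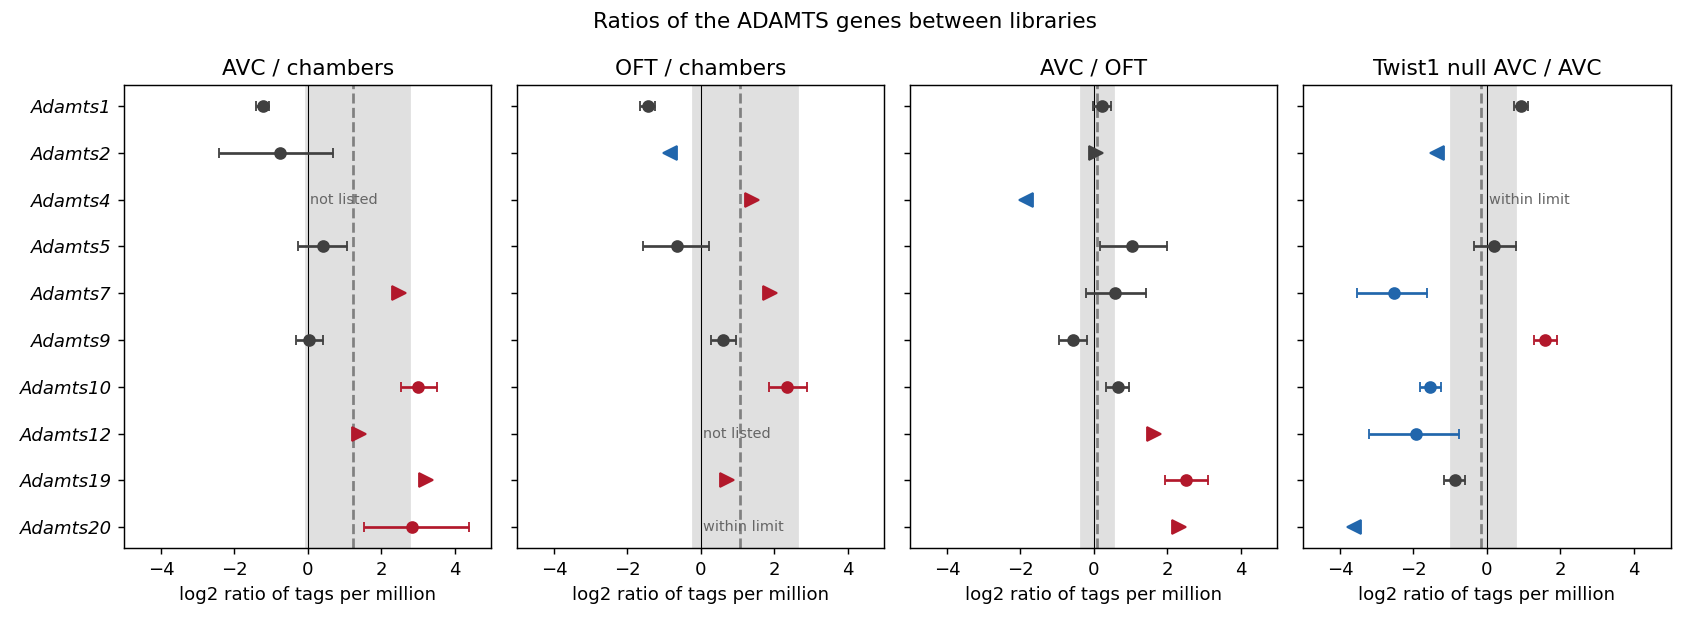
Log2 ratio of the levels of each ADAMTS gene (horizontal axis) in 4 comparisons, with exact 95% intervals for counting error; red marks a higher and blue a lower call by the edgeR exact test. Arrowheads are bounds for genes with no listed tag on 1 side, "within limit" marks a bound of 1-fold or less, the dashed line is the median of all genes and the grey band holds the middle 50% of them. *Adamts7*, *Adamts10* and *Adamts19* lie to the right of 0 in both comparisons with the chambers.

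*Adamts19*, which is known from inherited disease of the heart valves and has no well established substrate, had the smallest p of the 10 genes in the AVC against the chambers. It had 189 AVC tags (31.1 TPM), 220 null AVC tags (17.0 TPM), 29 OFT tags (5.51 TPM) and no tag from either chamber. The order of the levels was AVC, null AVC and OFT, with counting intervals that did not overlap, and the chambers were below the limit of each of its tags. The AVC exceeded the chambers at least 9.22-fold, with each of its 3 tag types counted at 5 tags in each chamber. The edgeR exact test, which counts the unlisted tags as none, gave p = 2.43e-11. Against the OFT it was 5.65-fold higher in the AVC (95% interval 3.81 to 8.67 for counting error, edgeR exact p = 0.00191, adjusted p = 0.0577). The OFT itself was at least 1.63-fold higher than the chambers. With unlisted tags counted as none the edgeR exact p was 1.38e-05, but the call was lost with 5 tags for each unlisted tag type. The study, by contrast, lists *Adamts19* as specific to the AVC and did not count it as enriched in the OFT. It also measured *Adamts19* by RT-qPCR in the atria, ventricles, AVC and OFT in support of its tag counts. Its tags were mapped to genes with other software, so its test and the one used here are not alike. In the null AVC the level was 0.545-fold that of the wild type, which was not called (p = 0.237, edgeR exact test).

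The tags of *Adamts19*, all in the 3′ UTR (gene on the plus strand at chr18:58836667-59054060), also came from different sites. Site 5, 593 bases from the annotated end, gave 96.3% of its tags in the AVC (95% Clopper-Pearson interval 92.5 to 98.5), all 29 in the OFT and 66.8% in the null AVC (60.2 to 73.0). Site 6, 638 bases from the end, gave 3.70% in the AVC and 30.5% in the null AVC. Between the wild-type and null AVC, 29.5% of the tags had moved between sites, and 21.1% of 5751 genes with enough tags had moved as much or more. At site 5 alone the null AVC was 2.64-fold lower than the wild type (counting interval 2.12 to 3.31), while at site 6 it was 4.48-fold higher (2.06 to 11.6).

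*Adamts10*, a protease that binds fibrillin microfibrils and is mutated in Weill-Marchesani syndrome, was listed in all 5 libraries. It was at 38.7 TPM (235 tags) in the AVC, 24.7 TPM (130 tags) in the OFT, 13.3 TPM (173 tags) in the null AVC, 6.21 TPM (29 tags) in the atria and 3.31 TPM (14 tags) in the ventricles. Each cushion library was above each chamber, and the null AVC lay between them. The AVC was 8.0-fold above the chambers (counting interval 5.76 to 11.3, edgeR exact p = 1.97e-04), a log2 ratio of 3.00. The OFT was 5.10-fold above them (3.59 to 7.38, edgeR exact p = 0.00343). The null AVC was 2.90-fold below the wild type (2.37 to 3.55, edgeR exact p = 0.0408, adjusted p = 0.178), a call that was lost under 7 alternatives, TMM among them. None of its tags begins with T. Of the genes with at least 20 TPM in sum, those with the most similar split over the 5 libraries were *Abca7*, *Hexa* and *Sh3pxd2a*, out of 9537 genes.

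*Adamts7* and *Adamts12* form a pair of proteases that carry a mucin-like segment and cleave cartilage oligomeric matrix protein. *Adamts7* was at 6.25 TPM (38 tags) in the AVC, 4.18 TPM (22 tags) in the OFT and 1.08 TPM (14 tags) in the null AVC, and was unlisted in both chambers. The AVC exceeded the chambers at least 5.56-fold (edgeR exact p = 3.90e-06) and the OFT did so at least 3.71-fold (edgeR exact p = 7.51e-05). The AVC and the OFT were not told apart, at a ratio of 1.5 (counting interval 0.863 to 2.66, edgeR exact p = 0.545). In the null AVC it was 5.80-fold lower than in the wild type (3.07 to 11.6, edgeR exact p = 0.00482). *Adamts12* followed with 2.96 TPM (18 tags) in the AVC and 0.771 TPM (10 tags) in the null AVC. The AVC was at least 2.63-fold above the chambers (edgeR exact p = 3.76e-04) and at least 3.12-fold above the OFT (edgeR exact p = 0.00111). The null AVC was 3.84-fold lower (1.68 to 9.32, edgeR exact p = 0.0446). This call was lost with TMM, with DESeq2 size factors, at a dispersion of 0.4 and by adjusted p (0.188, edgeR exact test). The call of *Adamts7* in the null AVC was lost at a dispersion of 0.4 and by adjusted p (0.0524, edgeR exact test). Each gene had 1 tag type, and the part of sequence differences between the strains at that site was not tested. All tags of both genes begin with T; with an offset for such tags, chosen after seeing the data, their log2 ratios in the null AVC were -3.93 and -3.33, further from 0 than without it. *Comp*, which encodes the substrate, had no listed tag in any of the 5 libraries.

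*Adamts20*, the gene of the belted coat-colour mouse and a versican-cleaving protease close to *Adamts9*, had 29 tags (4.77 TPM) in the AVC and 6 tags (1.42 TPM) in the ventricles. The OFT, the atria and the null AVC had no listed tag of it. The atria, counted as none in the ratio to the chambers, could hold up to 1.07 TPM of *Adamts20*. It was 7.07-fold higher in the AVC than in the chambers (counting interval 2.89 to 20.8, edgeR exact p = 0.00580) and at least 5.03-fold higher than in the OFT (edgeR exact p = 9.29e-05). In the null AVC, the deepest library, it was at least 12.4-fold lower (edgeR exact p = 7.15e-06). All its tags came from a single site, so that a sequence difference between ICR and C57BL/6 at that site cannot be told apart from a lower level.

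*Adamts9*, which cleaves versican and is required for embryonic survival, had its highest level in the null AVC. It was at 51.6 TPM (669 tags) there, 25.4 TPM (134 tags) in the OFT, 20.4 TPM (86 tags) in the ventricles, 17.1 TPM (104 tags) in the AVC and 13.3 TPM (62 tags) in the atria. The null AVC was above each of the 4 wild-type libraries. *Adamts9* was not called between the AVC or the OFT and the chambers (ratios of 1.03 and 1.53; edgeR exact p = 0.962 and 0.418). The null AVC was 3.01-fold above the wild-type AVC (counting interval 2.45 to 3.74, edgeR exact p = 0.0346, adjusted p = 0.163). This call was lost at a dispersion of 0.4, by adjusted p and with 5 tags for each unlisted tag type. Of the *Adamts9* tags, 93.5% begin with T. With the T offset the log2 ratio was 0.25 in place of 1.59 and the call was lost (p = 0.725 in the edgeR fit across all genes), whereas with T tags left out it was 1.81 (edgeR exact p = 0.0491), which rests on 9 tags in the AVC. Those 9 tags came from site 2, which had 10 tags in the null AVC, 0.520 times the wild-type level (counting interval 0.190 to 1.45). The other tags without T in the null AVC were 43 from site 4, which was unlisted in the AVC. *Pop7*, *Nit2* and *Pdpn* had the most similar split over the libraries.

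*Adamts1*, which cleaves versican and aggrecan, was lower in the AVC and the OFT than in the other 3 libraries, though not past the test. It was at 129 TPM (546 tags) in the ventricles, 115 TPM (538 tags) in the atria, 98.9 TPM (1284 tags) in the null AVC, 52.0 TPM (316 tags) in the AVC and 44.6 TPM (235 tags) in the OFT. The AVC stood at 0.427 times the chambers (counting interval 0.375 to 0.484) and the OFT at 0.366 times (0.316 to 0.422), and neither was called (edgeR exact p = 0.0951 and 0.0501). Both were called lower with TMM (p = 0.00457 and 0.00281 in the edgeR exact test across all genes). The null AVC was at 1.90 times the AVC (1.68 to 2.16, edgeR exact p = 0.204). The ventricles and the atria did not differ beyond counting error (ratio 1.12, interval 0.994 to 1.27).

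Of its 5 sites, the 3′-most and the third, 56 and 557 bases from the annotated end, gave nearly all *Adamts1* tags. The share of tags at the 3′-most site was 69.5% in the atria (Clopper-Pearson interval 65.4 to 73.4), 61.4% in the ventricles (57.1 to 65.5), 56.3% in the null AVC (53.5 to 59.0), 37.7% in the AVC (32.3 to 43.3) and 19.1% in the OFT (14.3 to 24.8). At this site the AVC was 4.07-fold and the OFT 9.34-fold below the chambers. At the third site the ventricles had 49.95 TPM, the null AVC 39.2, the OFT 36.1, the atria 35.1 and the AVC 32.4, so that the chambers were 1.30-fold (1.09 to 1.55) above the AVC. The regional difference of *Adamts1* therefore lay mainly in tags of the 3′-most site. In the OFT against the chambers 46.3% of the tags had moved between sites, and 6.10% of 3853 genes had moved as much; for the AVC the values were 27.7% of the tags and 19.8% of 4099 genes. Both main tags begin with TA, as printed above. With the T offset the log2 ratio of the AVC to the chambers was -0.31 in place of -1.23, and that of the null AVC to the AVC turned from 0.93 to -0.49.

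**Figure D3:**
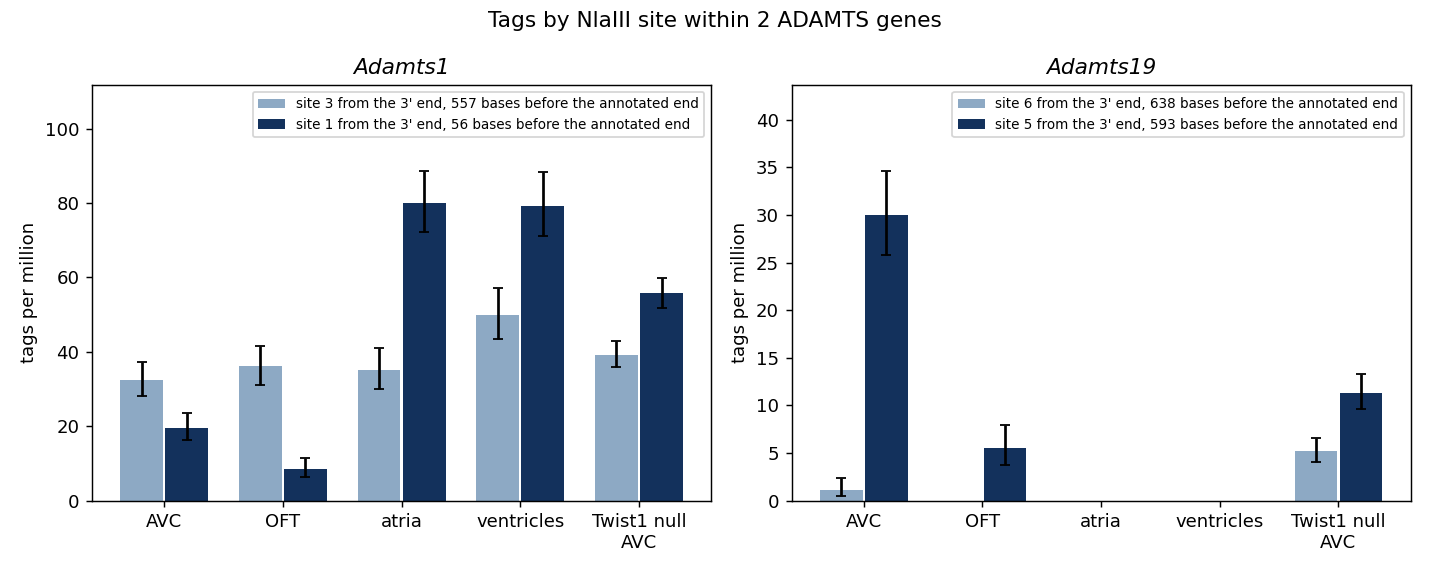
Level (TPM, linear axis from 0) of the 2 main NlaIII sites of *Adamts1* and of *Adamts19* in each library, with exact Poisson 95% intervals for counting error; a missing bar means that the tag was not listed. For *Adamts1* the dark bars of the 3′-most site are highest in the atria and the ventricles and lowest in the OFT, while the light bars differ less; for *Adamts19* site 6 stands at 5.16 TPM in the null AVC and 1.15 TPM in the AVC.

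*Adamts5* and *Adamts4*, the main aggrecan-cleaving proteases of cartilage, were low. *Adamts5* was at 7.71 TPM (36 tags) in the atria, 7.17 TPM (93 tags) in the null AVC, 6.25 TPM (38 tags) in the AVC, 3.04 TPM (16 tags) in the OFT and 1.42 TPM (6 tags) in the ventricles. The atria, the null AVC and the AVC had overlapping counting intervals, as did the AVC and the OFT. The ventricles were 5.43-fold below the atria (2.27 to 15.8, edgeR exact p = 0.0118, adjusted p = 0.107), which was lost at a dispersion of 0.4 and with 5 tags for unlisted tag types. Neither cushion region nor the null AVC was called for this gene. Its 4 tag types were at internal sites, none at the 3′-most. *Adamts4* was at 5.89 TPM (31 tags) in the OFT and 0.925 TPM (12 tags) in the null AVC, and not listed elsewhere; 83.7% of its tags begin with T. The OFT was at least 2.62-fold above the chambers (edgeR exact p = 9.87e-06) and at least 3.58-fold above the AVC (edgeR exact p = 2.81e-05). The call in the null AVC (edgeR exact p = 0.0168) is within the limit, since unlisted tags at 5 each would put the wild-type AVC at a higher level than the 12 tags of the null.

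*Adamts2*, which removes the N-propeptide of fibrillar procollagens, rested on 1 coding tag with 15 counts in the atria (3.21 TPM) and 6 in the AVC (0.988 TPM). The OFT was at least 1.78-fold below the chambers (edgeR exact p = 0.00545), the ventricles at least 2.72-fold below the atria (edgeR exact p = 0.00278), and the null AVC at least 2.56-fold below the wild-type AVC (edgeR exact p = 0.0254). For the null AVC, a sequence difference between the strains at this 1 site cannot be told apart from a lower level. With all annotated transcripts in place of those linked to RefSeq, the ratio of the OFT to the chambers turned to 0.31 on the log2 scale, so that no direction can be taken from it.

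The remaining ADAMTS proteases were examined as a list of 9 genes, of which *Adamts3*, *Adamts13* and *Adamts16* had no listed tag. In the AVC, 2 of 4 tested were higher than in the chambers and none was lower, a share near the 43.4% called higher over all genes (median log2 ratio 1.65 with unlisted genes at their bound, against 1.23 for all genes). *Adamts15*, another versican-cleaving member, was at 25.8 TPM in the null AVC, 24.4 in the wild-type AVC, 10.4 in the OFT, 7.34 in the ventricles and 5.57 in the atria, a 3.80-fold difference between the AVC and the chambers (edgeR exact p = 0.0137). *Adamts8* had 4.18 OFT and 4.11 AVC TPM and was unlisted in the other 3 libraries. Its AVC level was at least 3.66-fold above the chambers (edgeR exact p = 5.00e-05). Its null AVC level was at least 10.7-fold below that of the wild-type AVC (edgeR exact p = 1.95e-05). *Adamts8* had 1 tag type, so a sequence difference between the strains at that site cannot be told apart from a lower level. *Adamts17*, the closest relative of *Adamts19*, had 3.95 TPM in the wild-type and 17.0 in the null AVC, 4.29-fold higher (edgeR exact p = 0.00931, adjusted p = 0.0761), and 90.5% of its tags begin with T. *Adamts6*, the closest relative of *Adamts10*, was at 13.7 TPM in the OFT, 13.3 in the null AVC, 5.76 in the AVC, 4.74 in the ventricles and 3.21 in the atria. It was called higher in the OFT than in the chambers (3.47-fold, edgeR exact p = 0.0280). It was not called in the AVC against the chambers or in the null AVC, and 95.2% of its tags begin with T. *Adamts14* and *Adamts18* did not exceed 1.33 TPM in any library. In the OFT 4 of 6 tested genes of this list were called higher than in the chambers, 2 of them (*Adamts14* and *Adamts18*) from 7 and 6 tags, where 40.6% of all genes were. Among 6 ADAMTS-like genes, whose products lack the protease domain, 2 of 3 tested were called higher in the AVC than in the chambers (43.4% of all genes) and none of 3 was called in the null AVC. The call of *Adamtsl2*, from 9 tags, is within the limit, since unlisted tags at 5 each would put the chambers at a higher level. *Adamtsl4* had 9.38 AVC, 2.09 OFT and 1.42 ventricle TPM, and was 13.9-fold above the chambers in the AVC (edgeR exact p = 1.35e-04).

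Versican and genes of its partner hyaluronan were higher in the cushion regions than in the chambers. In a list of 12 hyalectan and hyaluronan genes, 7 of 7 tested were called higher in the AVC (43.4% of all genes), of which *Has3* and *Hapln4*, with 6 and 7 tags, are within the limit. In the OFT 5 of 6 were called higher (40.6% of all genes), and in the null AVC 1 of 7 was called lower (12.7%). The median log2 ratio in the AVC was 2.27 with unlisted genes at their bound, against 1.23 for all genes. *Vcan*, encoding versican, had 413 TPM (AVC), 405 (OFT), 263 (null AVC), 27.0 (ventricles) and 21 (atria; 17.3-fold, edgeR exact p = 4.99e-07 for the AVC against the chambers; 0.637 and p = 0.368 for the null against the AVC), and 79.4% of its tags begin with T. *Has2*, the hyaluronan synthase of the cushions, reached 241 OFT and 215 AVC TPM, against 9.23 in the ventricles and 1.71 in the atria. *Hapln1*, a link protein, was 4.81-fold and *Cd44*, a hyaluronan receptor, 19.6-fold higher in the AVC than in the chambers, and neither was called in the null AVC; 64.0% of *Cd44* tags begin with T. Of the other hyalectans, aggrecan (*Acan*) was listed in the OFT alone, with 6 tags, and *Bcan* and *Ncan* had no listed tag.

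Of 6 fibrillar procollagen genes, the substrates of *Adamts2* and its relatives, 4 exceeded the chambers in both cushion regions and 3 were lower in the null AVC, where 43.4%, 40.6% and 12.7% of all genes were so called (median log2 ratios 3.02, 3.46 and -1.78, against 1.23, 1.07 and -0.16 for all genes). *Col3a1* reached 2337 OFT and 1439 AVC TPM, against 207 in the null AVC, 109 in the ventricles and 94.9 in the atria, with 97.4% of its tags beginning with T, and *Col1a1* and *Col1a2* were the other 2 lower in the null AVC, at 0.177 and 0.204 times the wild type. Of 11 other matrix genes tested, 8 were higher in the AVC than in the chambers, and 6 were lower and 2 higher in the null AVC. The shares over all genes were 43.4%, 12.7% and 11.9%, and the call of *Matn3*, 1 of those 2, is within the limit. *Fbn2*, a fibrillin, was at 438 TPM in the wild-type AVC, 284 in the OFT, 47.4 in the null AVC, 31.0 in the ventricles and 30.9 in the atria. *Fn1* (fibronectin), *Thbs1* (thrombospondin 1) and *Nid1* (nidogen 1) were lower in the null AVC as well, at 0.357, 0.241 and 0.367 times the wild type. These counts move with the cushion mesenchyme markers, of which 5 of 8 were lower in the null AVC, or 4 of 7 without *Col3a1*, which stands in both lists, and the part of cell composition in them was not tested.

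Inhibitors and processing genes were examined last. Of the 3 listed TIMP genes, which encode metalloprotease inhibitors, *Timp1* was higher in the AVC than in the chambers (3.90-fold, edgeR exact p = 0.0104; 43.4% of all genes were called higher), and none was called in the OFT or in the null AVC. *Timp3*, the main inhibitor of ADAMTS proteases, was at 46.3 TPM in the OFT, 44.2 in the null AVC, 42.0 in the AVC, 21.1 in the ventricles and 21 in the atria, and 84.0% of its tags begin with T. Of 8 genes for activation, glycosylation and clearance, 5 were called higher in the AVC than in the chambers and 2 lower in the null AVC, against 43.4% and 12.7% of all genes. Of the 5, *Furin* was 52.4-fold, *Lrp1* 19.5-fold, *B3glct* 8.01-fold and *Pcsk7* 4.05-fold higher with unlisted tag types counted as none, while *Lrp2*, with 6 tags, is within the limit. The *Furin* ratio rests on 6 chamber tags. Counting unlisted tag types at 5 tags puts *Furin* at 6.64 (atria), 7.10 (ventricles) and 36.2 TPM (AVC). For *B3glct* these values are 6.00, 10.9 and 30.6 TPM, so both ratios could be much smaller. *Furin* had 65.5 (null AVC), 35.4 (AVC), 15.4 (OFT) and 1.29 TPM (atria), and had no listed ventricle tag; it was not called in the null AVC, and 88.9% of its tags begin with T. *B3glct*, which glucosylates thrombospondin repeats, and *Lrp1*, the receptor that clears several ADAMTS proteases, were the 2 genes lower in the null AVC, at 0.211 (edgeR exact p = 0.00394) and 0.270 times the wild type (edgeR exact p = 0.0117).

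**Figure D4:**
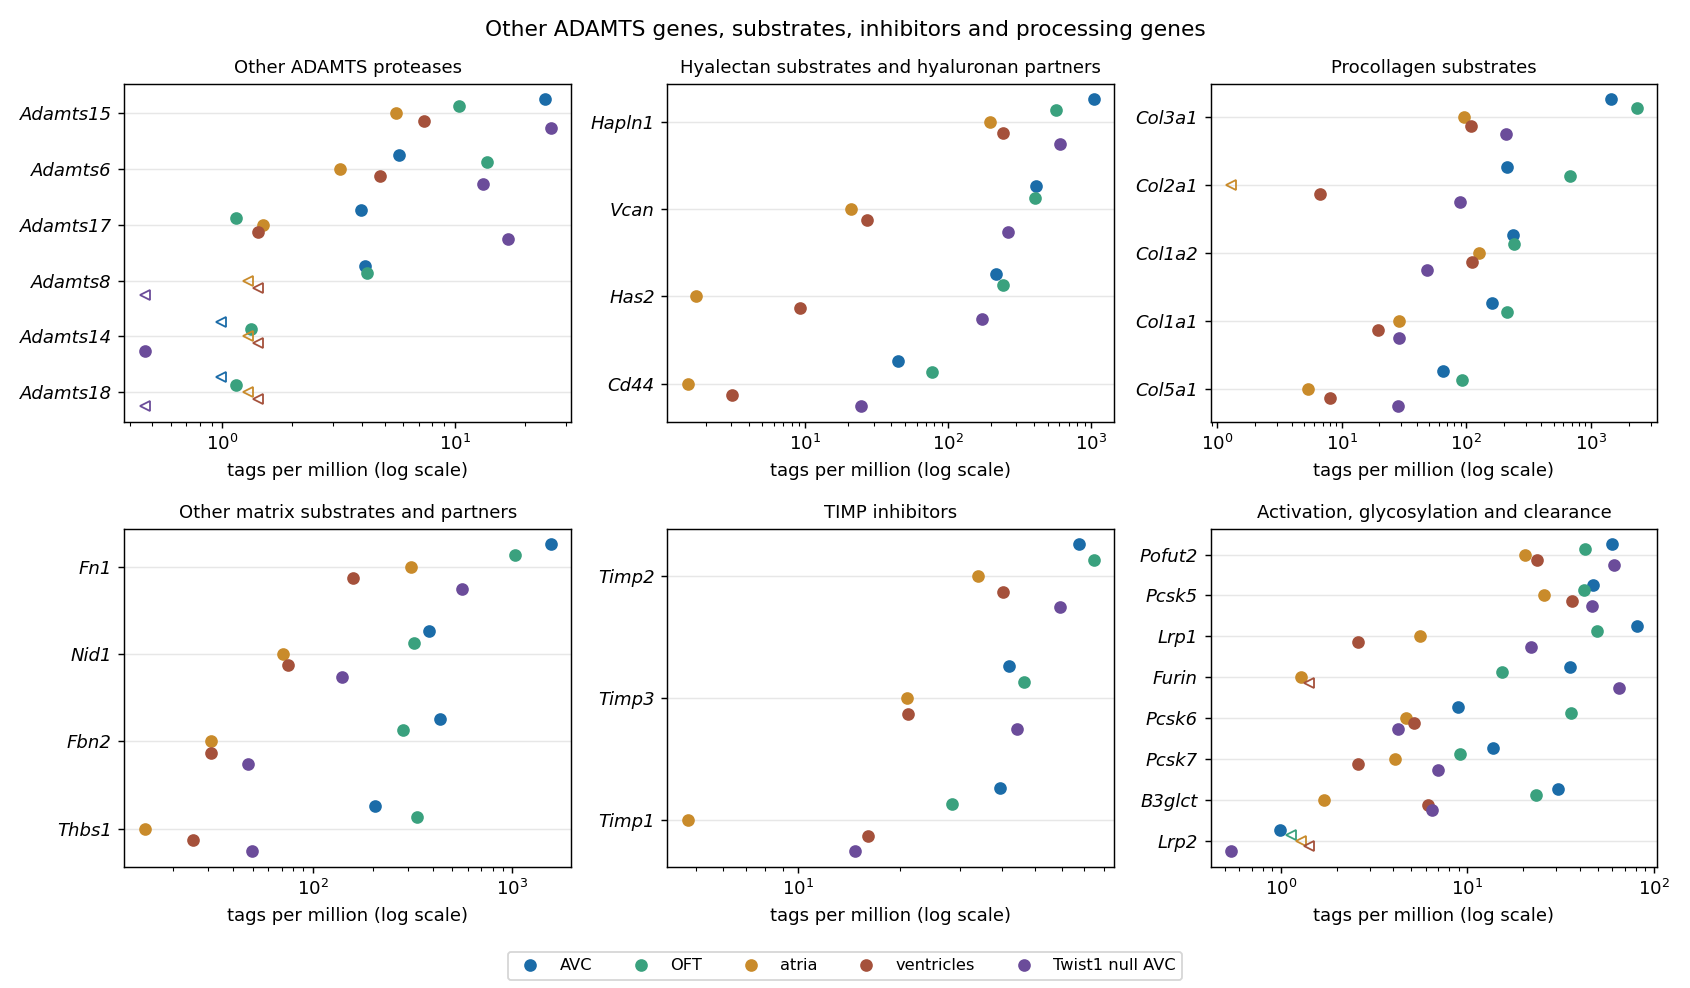
Levels (TPM, log scale) of the named genes of 6 companion lists, 1 point per library; open triangles mark the limit of 6 tags where a gene was not listed. Versican, *Has2*, *Cd44*, *Col3a1* and *Fbn2* have the AVC and OFT points to the right of both chambers, and *Timp3* spans 21 to 46.3 TPM.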

How the data were processed

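The deposited files give, for each library, every 17-base tag that follows an NlaIII site and its raw count, without normalization. According to the study's methods, the authors read 21 bases per tag, kept reads that passed a quality filter, and retained tag types with more than 5 tags per library; the files hold no count below 6. The labels name the build mm9, but the tags carry no positions, so positions given here are from GRCm38. Virtual tags were taken on the sense strand at every NlaIII site of 33363 GENCODE M21 transcripts linked to RefSeq, with 20 adenines added to each 3′ end, with scipy 1.17.1, pandas 2.3.3 and numpy 2.4.6 under Python 3.11.15. Of 315529 virtual tags, 308949 belonged to 1 gene; these were summed per gene and scaled to tags per 1000000 deposited tags (TPM). The samples were grouped by their labels, 1 library per group.

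Gene counts were compared with the exact test of edgeR 4.0.16 (R 4.3.3), two-sided, with all deposited tags as library size and the dispersion of 0.12 that the study used, in 5 comparisons. A gene was called at an unadjusted p under 0.05, the threshold of the study, and Benjamini-Hochberg values were computed over all genes tested. The calls did not reproduce those of the study. Here 5427 genes were called higher in the AVC than in the chambers, many more than the study listed as enriched there. That was 43.4% of the genes tested, against 26.2% with TMM in place of library totals. The study's *Twist1* ratio of the AVC to the chambers was also smaller than the 15.3-fold found here. The part of scaling in this, and any other reason, was not tested. With 1 library per group the spread between samples is set by this dispersion and not measured. Poisson intervals for TPM, and Clopper-Pearson intervals for ratios and shares, are at 95% and cover counting error only; copies of 1 molecule made by PCR are counted as separate tags. For a gene unlisted on 1 side, the bound counts each of its tag types listed in any library at 5 tags in each library of that side. The p beside a bound is from the test with unlisted tags counted as none, so it does not test the bound. Ratios of genes listed on both sides also count unlisted tag types as none, so a ratio to a low level can be too large. List medians were taken over fitted log2 ratios for all genes and, for the lists, with unlisted genes at their bound. Moved tags are the gains in share summed over those sites of a gene whose share was larger on 1 given side, for genes with at least 100 tags on each side. The script was tested on simulated data before use. The 10 genes, the 7 companion lists of 58 genes and the marker lists were chosen with earlier results of these data known. All 10 genes are named, with *Twist1*, the 4 genes of each companion list with the highest summed TPM, members of lists of 9 or fewer that were called, and the 3 nearest profiles (summed TPM of at least 20), of which those of *Adamts5* are not reported here; *Acan*, *Bcan*, *Ncan*, *Comp*, *Prrx1* and the cushion marker sums without *Col3a1* were named after their values were seen. The alternatives were TMM and DESeq2 1.42.0 size factors, totals without haemoglobin, other dispersions (0.05 and 0.4), a likelihood ratio test, adjusted p, filters, other sets of tags or transcripts, thinning, and single chambers. After seeing the data, 2 were added: an offset for tags that start with T, and 5 tags for each unlisted tag type.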

Additional observations from a re-analysis of the deposited data

Results flagged for a closer look

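For 4 genes the ratio to the same chambers differed between the AVC and the OFT by the test of the AVC against the OFT: *Adamts4* was at least 3.58-fold lower in the AVC, *Adamts12* at least 3.12-fold higher, *Adamts19* 5.65-fold higher and *Adamts20* at least 5.03-fold higher. Tags from the antisense strand, which the comparisons leave out, were listed in the *Twist1* null AVC for *Adamts4* (0.616 TPM), *Adamts5* (0.925 TPM), *Adamts9* (8.71 TPM) and *Adamts19* (1.31 TPM), above their level in the wild-type AVC. For *Adamts9* this was 113 tags, against 19 tags (3.13 TPM) in the AVC, 6 in the OFT (1.14 TPM), 16 in the atria (3.43 TPM) and none in the ventricles. In the OFT, *Adamts4* and *Adamts19* also had 1.71 TPM each and *Adamts5* 1.33 TPM of antisense tags, all 3 above the null AVC.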

How the results depend on the processing

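No paired analysis was possible because each group had 1 library. Of 23 calls on the ADAMTS genes, 7 were made in every alternative that gave a value (16 planned, 2 added after seeing the data). In the AVC against the chambers, the calls higher went from 5 to 2 for genes with at least 50 tags, and those lower from 0 to 1 with TMM, DESeq2 size factors, a dispersion of 0.05, tag types with more than 10 tags, the 3′-most site and thinning. In the OFT, calls higher went from 4 to 1 at 50 tags and 2 with 5 tags for unlisted tag types; calls lower went from 1 to 2 with TMM, DESeq2 size factors, totals without haemoglobin, a dispersion of 0.05, 1-base mismatch tags left out, the ventricles alone and the T offset, to 3 by the likelihood ratio test, and to 0 at 50 tags, with all transcripts and with 5 tags for unlisted types. In the null AVC, calls higher went from 2 to 0 at a dispersion of 0.4, by adjusted p, with 5 tags for unlisted types and with the T offset, and to 1 at 50 tags and thinned; calls lower went from 5 to 3 with TMM, DESeq2 size factors, the 3′-most site, T tags left out and thinning, to 2 at 50 tags, and to 1 at a dispersion of 0.4 and by adjusted p. In the AVC against the OFT, calls at 50 tags were 1 higher (3 before) and 0 lower (1 before). In the ventricles against the atria, calls higher went from 0 to 1 at a dispersion of 0.05, by the likelihood ratio test and with the T offset; calls lower went from 2 to 1 at a dispersion of 0.4, by adjusted p and without T tags, and to 0 at 50 tags, the 3′-most site and 5 tags for unlisted types. The 34 listed values (10 genes in 5 libraries) fell to 18 without T tags.

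The following log2 ratios changed sign, none of them called in the main test except *Adamts2* in the OFT and *Adamts4* in the null AVC. AVC against chambers: *Adamts2* 5.38 (ventricles alone), *Adamts5* -0.50 (TMM), -0.66 (DESeq2 size factors) and -0.30 (atria alone), and *Adamts9* -0.87 (TMM), -1.02 (DESeq2 size factors), -0.17 (without haemoglobin), -0.084 (more than 10 tags), -0.090 (3′-most site), -0.16 (all transcripts), -0.25 (ventricles alone) and -0.11 (5 tags for unlisted types). OFT against chambers: *Adamts2* 0.31 (all transcripts), *Adamts5* 0.52 (more than 10 tags), 1.08 (ventricles alone) and 0.18 (T offset), and *Adamts9* -0.20 (TMM) and -0.33 (DESeq2 size factors). Null against wild-type AVC: *Adamts1* -0.49 and *Adamts5* -1.07 (T offset), *Adamts5* -6.03 (T tags left out, with no tag in the null) and *Adamts4* -0.33 (5 tags for unlisted types). AVC against OFT: *Adamts2* -1.65 (all transcripts) and *Adamts9* 0.13 (T tags left out). Ventricles against atria: *Adamts1* -0.12 (TMM, DESeq2 size factors and without haemoglobin) and -0.015 (3′-most site). Scaling by TMM moved the median of all genes by -0.91 in the AVC and -0.81 in the OFT against the chambers, 0.24 in the null AVC and -0.28 between the chambers. The cause of these changes was not tested. A gene unlisted in the ventricles, the shallowest library, may hold up to 5 tags of each type.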

Other observations

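Antisense tags of *Adamts10*, from 1 tag type, amounted to 5.10 TPM (AVC), 4.37 TPM (OFT) and 0.925 TPM in the null AVC, and were unlisted in both chambers, which is the order of its sense tags in these 3 libraries. *Adamts1* had 15 antisense tags (2.85 TPM) in the OFT and none in the other libraries. Of 9537 genes with at least 20 TPM in sum, those with the split over the libraries most similar to *Adamts1* were *Ssr4*, *Triap1* and *Prdx6*, and those most similar to *Adamts19* were *Wdr44*, *Slc24a3* and *Rxfp1*. *Rxfp1*, the relaxin receptor, was at 48.1 TPM in the wild-type AVC, 29.1 in the null AVC, 3.55 in the ventricles and 11 in the OFT. *Efemp2*, encoding fibulin 4, was 6.35-fold higher in the null AVC than in the AVC (edgeR exact p = 0.00136), and 97.5% of its tags begin with T, while *Ltbp1*, with no such tag, was at 0.0428 times the wild type (edgeR exact p = 7.68e-08); both were named after their values were seen.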
